A study of Danio rerio with 6 samples.

Results

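Matrix metalloproteinases (Mmps) and tissue inhibitors of metalloproteinases (Timps) were followed in GFP+ cells sorted from the zebrafish retina. The members were chosen by symbol from a list of 8, of which 7, mmp2, mmp9, mmp13a, mmp14a, mmp14b, timp2a and timp2b, matched 1 row each among the 27152 symbols of the deposited expression table. mmp15b is not a name in that table. The 6 RNAseq libraries came from adult fish that the labels describe as gfap:GFP, a line whose gfap promoter drives GFP in Müller glia (MG), with 2 libraries for each of 3 groups. The groups were uninjured retinas, retinas at 2 days after a needle poke injury (injured), and retinas at 2 days after the same injury that also received a morpholino against apobec2a and apobec2b (apobec2 KD). The paper gives a tuba1a:GFP line for the injured cells, and the columns of the injured group are named for a control morpholino. Where line or morpholino differed between 2 groups, a difference between those groups cannot be told apart from it. This limit applies to injured and to apobec2 KD cells against uninjured cells, also if the injured and apobec2 KD groups shared a line or both received a morpholino. How many fish went into a library, and whether the libraries of a group came from separate fish, is not given in the sources used here, so the p-values measure the spread between libraries, which may be technical.

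Mmps are zinc-dependent proteases that cut collagens and other proteins of the extracellular matrix, and most are secreted or displayed as inactive proenzymes whose propeptide has to be removed. The gelatinases Mmp2 and Mmp9 cut type IV and denatured collagen, the collagenase Mmp13 cuts fibrillar collagen, and the membrane-type enzymes Mmp14 and Mmp15 are anchored at the cell surface. Timps bind the active site of Mmps and block it. In mammals, Timp2 also bridges pro-Mmp2 to Mmp14 at the cell surface, where the proenzyme is activated, so an inhibitor of this family can take part in activation. MG span the thickness of the retina, and in zebrafish they respond to injury by dividing and producing progenitors.

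The values are FPKM, a fragment count divided by the transcript's length and by the mapped fragments of the library, so that levels of different genes can be set side by side. Within each group, library a carries the table's index 0 and library b its index 1. Depth cannot be read from FPKM rounded to 0.01, and 6 further columns of scaled fragment values were not used. No counting interval or floor is therefore given, and a value of 0 is called listed at 0.

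After injury 4 of the 7 genes were higher, mmp9, mmp13a, mmp14b and timp2b, and mmp2 was lower. mmp9 showed the largest ratio of group means that could be formed, from 0.57 ± 0.18 to 114.3 ± 10.5 FPKM (SD, n = 2 libraries each), and timp2b rose from 1.55 ± 0.05 to 41.1 ± 5.91 FPKM (SD, n = 2 each). timp2a lay 1.24-fold higher and did not pass the test. mmp14a did not reach the level needed for the test.

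The test was limma on log2(FPKM + 1), over genes that reached 1 FPKM in 2 or more of the 4 libraries compared, with Benjamini-Hochberg adjustment over all genes tested and a threshold of 0.05. It called 48.7% of 16849 genes between injured and uninjured cells, 29.7% higher and 19.0% lower, and of the 6 members tested it called 4 higher and 1 lower. The background is thus high, and the number of members called is not by itself a result about them. The median log2 fold change was 2.84 over the 6 members tested and 0.08 over all genes tested. The members were chosen with earlier results of these data known. mmp9 and mmp13a were under 1 FPKM in both uninjured libraries and passed the filter only through the injured ones. Their positive sign was thus fixed by entry, here and in apobec2 KD over uninjured cells, and the member median is a description only. With quantile normalization, which moved the median over all genes from 0.08 to -0.11, the calls over all genes split into 3795 higher and 4803 lower in place of 4997 and 3206, while all 6 members kept their direction. The libraries of the 2 groups did not overlap for 77.2% of the genes tested, 43.8% higher and 33.4% lower, so a lack of overlap is common here. In bulk samples, fewer cells of a type and less RNA per cell cannot be told apart.

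**Figure D1:**
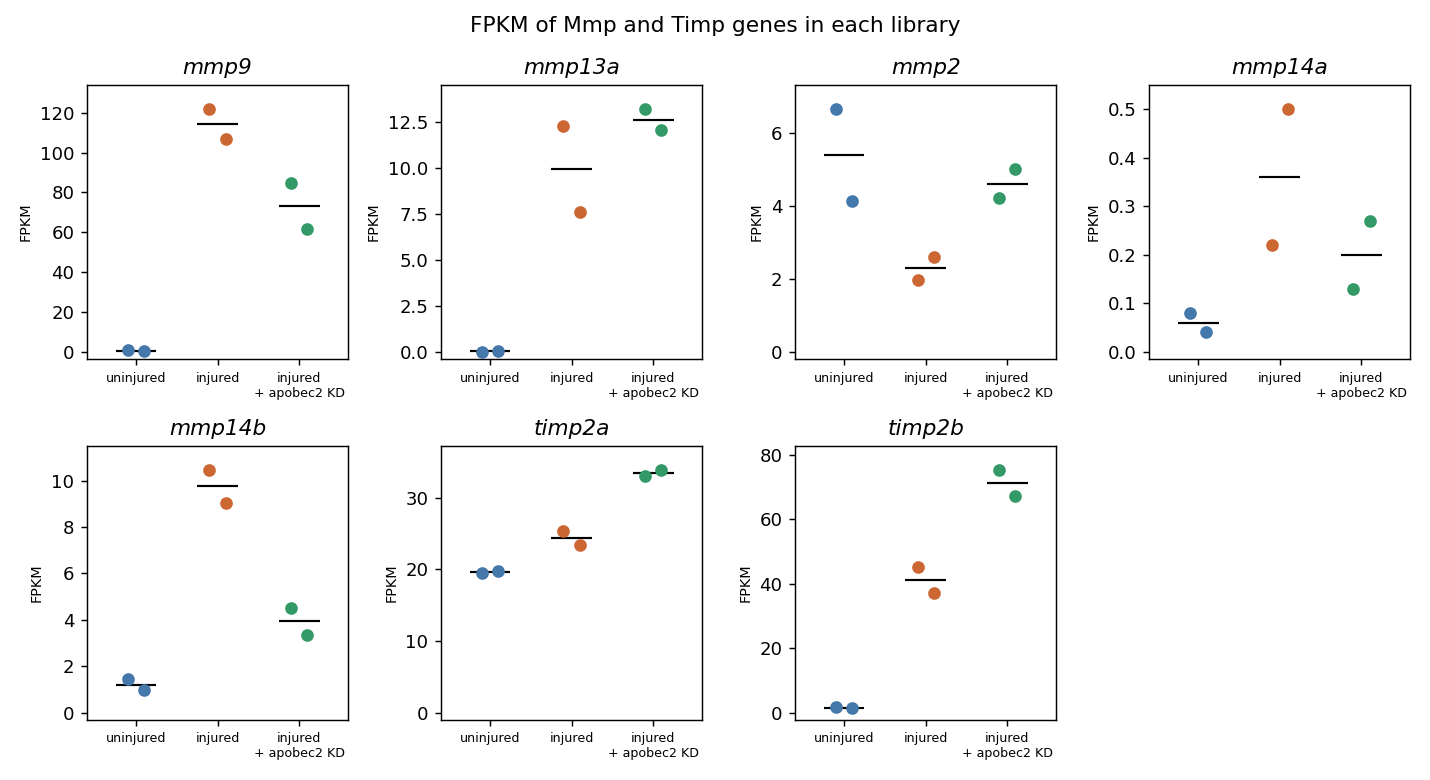
FPKM of the 7 genes in each of the 6 libraries, with 1 panel per gene and a linear axis from 0 for each, so the axes differ between panels. Points are libraries and lines are group means. mmp9, mmp13a, mmp14b and timp2b lie near 0 in the uninjured libraries and apart from them in all 4 injured and apobec2 KD libraries, while timp2a runs from 19.4 to 33.9 FPKM.

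In the retinas with apobec2 KD, mmp9, mmp13a, mmp14b, timp2a and timp2b were all higher than in uninjured cells, and mmp2 was not called. Against injured cells without the apobec2 morpholino, mmp14b was lower and mmp2 and timp2b were higher, whereas mmp9, mmp13a and timp2a did not pass the test. limma called 36.9% of 16423 genes between apobec2 KD and uninjured cells, 22.9% higher and 13.9% lower, against 5 higher and 0 lower of 6 members tested. The member not called was mmp2, with an unadjusted p of 0.497. Between apobec2 KD and injured cells it called 9.37% of 16680 genes, 3.14% higher and 6.24% lower, against 2 higher and 1 lower of 6 members tested. The calls of mmp2 and timp2b lie close to the threshold, and all 3 were lost when any 1 of the 4 libraries was left out. The comparisons share libraries, so their values stand side by side and are not separate evidence. The libraries did not overlap for 72.6% of the genes tested between apobec2 KD and uninjured cells, 41.6% higher and 31.1% lower. The knockdown could not be checked from RNA: apobec2a was at 0.25 and 0.51 FPKM in the injured and 0.39 and 0.38 FPKM in the apobec2 KD libraries, and morpholinos act on translation or splicing. A row named APOBEC2 (2 of 2), which carries neither target's symbol, was at 1.12 and 0 FPKM in the uninjured, 8.60 and 8.19 FPKM in the injured and 16.8 and 15.8 FPKM in the apobec2 KD libraries.

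**Figure D2:**
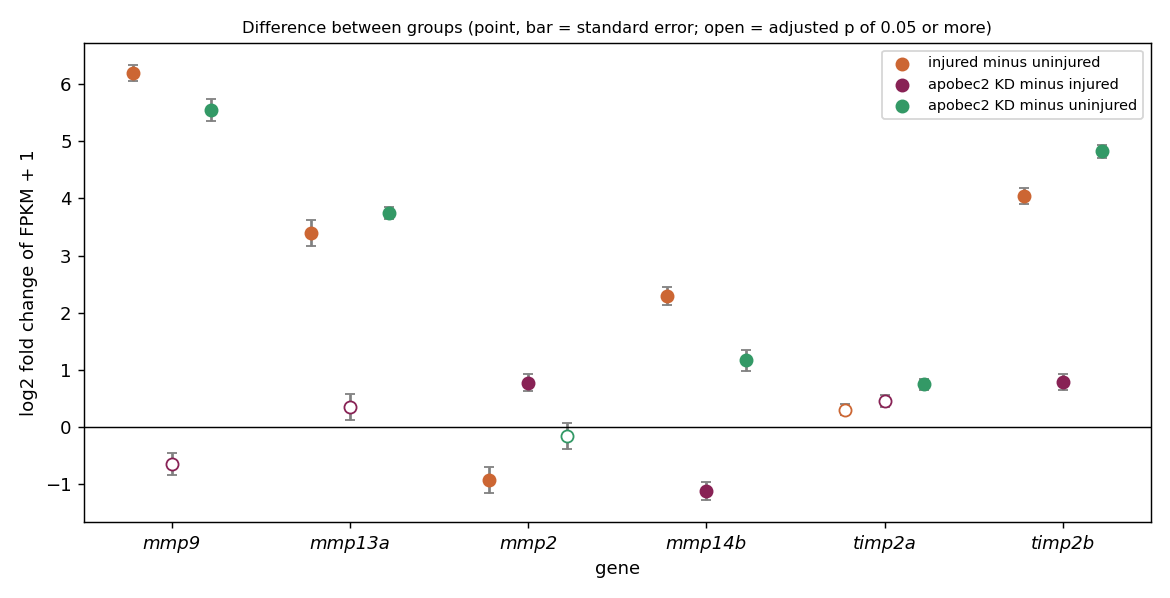
log2 fold change of FPKM + 1 for the 6 genes tested, in the 3 comparisons between groups, with bars for the standard error. Filled points have an adjusted p under 0.05 and open points do not. The values for injured and for apobec2 KD against uninjured cells run from -0.94 for mmp2 to 6.20 for mmp9, and those for apobec2 KD against injured cells stay between -1.13 and 0.78.

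Among the gelatinases, mmp9, listed at positions 25134454 to 25148890 of chromosome 8 in a build that the sources used here do not give, was at 0.70 and 0.44 FPKM in the uninjured, 121.8 and 106.9 FPKM in the injured and 84.6 and 61.4 FPKM in the apobec2 KD libraries a and b. The uninjured libraries were apart from all others, and the 3 groups did not overlap. The ratio of the group means was 200.5 for injured over uninjured, and the lowest injured library was still 152.7-fold above the highest uninjured one. On the log2(FPKM + 1) scale, which understates the change of low genes, the difference was 6.20 (standard error 0.14, adjusted p = 5.27e-04 from limma), the 14th largest positive value of 16849 genes. In rank, mmp9 moved from above 38.8% and 34.6% of all symbols in the uninjured libraries to above 97.6% and 97.3% in the injured ones.

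Against injured cells, mmp9 was lower in both apobec2 KD libraries, with no overlap, by a log2 difference of -0.66 (standard error 0.19). This did not pass the test (adjusted p = 0.102 from limma), and its adjusted p lay between 0.0666 and 0.308 over the 13 alternatives. In this comparison 61.8% of the genes tested did not overlap between the groups, 28.7% higher and 33.2% lower. Against uninjured cells, mmp9 in the apobec2 KD libraries was 128.0-fold higher by the group means, with a log2 difference of 5.55 (standard error 0.19, adjusted p = 7.68e-04 from limma).

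mmp2, the other gelatinase, is listed on chromosome 7 from 36864729 to 36887581. It was at 6.66 and 4.14 FPKM in the uninjured, 1.98 and 2.61 FPKM in the injured and 4.21 and 5.02 FPKM in the apobec2 KD libraries. Its injured libraries were the lowest of the 6, and its apobec2 KD libraries lay within the range of the uninjured ones. mmp2 thus fell after injury where mmp9 rose, with a mean 2.35-fold lower, the log2 difference being -0.94 (standard error 0.23, adjusted p = 0.0316 from limma). This call rests on few libraries: without uninjured library a the difference was -0.65 (adjusted p = 0.0785), and without injured library a or b the adjusted p was 0.161 and 0.099. In apobec2 KD over injured cells mmp2 was 2.01-fold higher by the means, a log2 difference of 0.77 (standard error 0.15, adjusted p = 0.0489 from limma). That call was lost in 7 of 12 alternatives, among them the fit of all 3 groups (adjusted p = 0.0793). Against uninjured cells the log2 difference under apobec2 KD was -0.16 (standard error 0.22, adjusted p = 0.597 from limma), and its sign turned to 0.12 without uninjured library a. The summed level of the 10 pericyte or fibroblast markers found was 79.3 to 87.9 FPKM in the uninjured, 49.8 to 65.6 FPKM in the injured and 71.1 to 75.0 FPKM in the apobec2 KD libraries. Much of the uninjured sum was rgs5a, at 62.9 and 54.4, then 9.37 and 14.4, then 17.1 and 22.9 FPKM, and the list as a whole did not follow it: of 8 tested 4 were higher and 2 lower after injury, with a median log2 difference of 0.45. The shares over all genes tested were 29.7% higher and 19.0% lower after injury. Comparing apobec2 KD with injured cells, limma called 0 of the 8, against 9.37% of all genes, with 3 at an unadjusted p under 0.05. Their part in the values of mmp2 was not tested.

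The collagenase gene mmp13a, on chromosome 10 from 39959933 to 39979810, was listed at 0 and 0.03 FPKM in the uninjured libraries. It was at 12.3 and 7.58 FPKM in the injured and 13.2 and 12.04 FPKM in the apobec2 KD libraries. All 4 injured libraries, with or without the apobec2 morpholino, therefore held mmp13a RNA at a level where the uninjured ones held almost none. No fold is given against a group listed at or near 0. On the log2(FPKM + 1) scale the difference after injury was 3.39 (standard error 0.23, adjusted p = 0.00134 from limma), and under apobec2 KD 3.74 (standard error 0.11, adjusted p = 6.03e-04). The apobec2 KD and injured libraries overlapped, and the log2 difference of 0.35 (standard error 0.23) did not pass the test (adjusted p = 0.370 from limma).

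Within a library, mmp9 exceeded mmp13a 9.92-fold and 14.1-fold in injured cells and 6.41-fold and 5.10-fold in apobec2 KD cells. The apobec2 KD ratios were both below the injured ones. mmp13b, the paralog of mmp13a and no member of the set, was listed at 0 FPKM in both uninjured libraries, at 3.78 and 2.06 FPKM in the injured and at 4.65 and 5.61 FPKM in the apobec2 KD libraries.

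Of the membrane-type genes, mmp14b, on chromosome 2 from 37864075 to 37886399, was at 1.46 and 0.95 FPKM in the uninjured, 10.5 and 9.05 FPKM in the injured and 4.51 and 3.36 FPKM in the apobec2 KD libraries. The 3 groups did not overlap in any pair, with the injured cells highest and the apobec2 KD cells between. Its mean rose 8.10-fold after injury, a log2 difference of 2.29 (standard error 0.16, adjusted p = 0.00134 from limma). In apobec2 KD cells the mean was 2.48-fold below that of injured cells, a log2 difference of -1.13 (standard error 0.16, adjusted p = 0.0245 from limma). With each library left out in turn that difference stayed between -1.30 and -0.96 and the adjusted p rose to between 0.0731 and 0.137. Against uninjured cells it was 3.27-fold higher by the means, a log2 difference of 1.16 (standard error 0.18, adjusted p = 0.0107 from limma), which was no longer past the threshold without uninjured library b (0.99, adjusted p = 0.055) or without KD library a (0.99, adjusted p = 0.0687). mmp14b and timp2b were the members that passed the test in all 3 comparisons. The comparisons share libraries, and the share of all genes passing in all 3 was not counted, so this is a description only.

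Its paralog mmp14a, on chromosome 7 from 25291381 to 25316761, stayed under 1 FPKM everywhere and was not tested. It was at 0.08 and 0.04 FPKM in the uninjured, 0.22 and 0.50 FPKM in the injured and 0.13 and 0.27 FPKM in the apobec2 KD libraries. The apobec2 KD libraries overlapped the injured ones. In injured cells the FPKM of mmp14b was 47.6 and 18.1 times that of mmp14a, so most of the Mmp14 RNA of these cells came from mmp14b. For Mmp15, the table has rows named MMP15 (1 of 2) and MMP15 (2 of 2), neither of which carries the member's symbol. Among the 10 nearest rows on each side, MMP15 (1 of 2) shares 3 neighbours with mmp15b in the RefSeq genes of GRCz12tu and 0 with mmp15a. It was listed at 0.51 and 1.12 FPKM in the uninjured, 0.58 and 1.36 FPKM in the injured and 0.92 and 0.67 FPKM in the apobec2 KD libraries, and is not counted here as a member.

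The inhibitor genes timp2a and timp2b are paralogs of each other and orthologs of the single Timp2 gene of mammals. timp2a, on chromosome 12 from 35487182 to 35531581, was the highest of the 7 genes in uninjured cells, at 19.4 and 19.7 FPKM, and was at 25.3 and 23.4 FPKM in the injured and 33.1 and 33.9 FPKM in the apobec2 KD libraries. Its groups followed each other without overlap, but over a narrow range. The log2 difference after injury was 0.30 (standard error 0.10, adjusted p = 0.0641 from limma) and that between apobec2 KD and injured cells 0.44 (standard error 0.10, adjusted p = 0.0698 from limma). Neither passed the test, whereas apobec2 KD over uninjured cells did, at 1.71-fold by the means and a log2 difference of 0.74 (standard error 0.10, adjusted p = 0.00684 from limma). Both of the first pair passed when all 3 groups shared 1 fit (adjusted p = 0.0445 and 0.0384), and with quantile normalization the difference after injury was 0.12 (adjusted p = 0.351).

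timp2b, on chromosome 3 from 58446853 to 58480406, was at 1.58 and 1.51 FPKM in the uninjured, 45.3 and 36.9 FPKM in the injured and 75.3 and 67.1 FPKM in the apobec2 KD libraries. The 3 groups did not overlap, with the apobec2 KD cells highest. The mean rose 26.6-fold after injury, by 4.04 on the log2 scale (standard error 0.13, adjusted p = 5.50e-04 from limma). The apobec2 KD mean was a further 1.73-fold higher than that of injured cells, a log2 difference of 0.78 (standard error 0.15, adjusted p = 0.0450 from limma), which no longer passed with a pseudocount of 0.1 (adjusted p = 0.073) or with no filter (adjusted p = 0.0754). Against uninjured cells it was 46.1-fold higher, by 4.82 on the log2 scale (standard error 0.11, adjusted p = 5.72e-04 from limma). The listed locus of timp2b is shared with the row CU681857.1, which was at 0.14 to 1.59 FPKM, so a small part of the reads could be split between them.

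The order of the 2 inhibitor genes turned over with injury. timp2b was at 0.08 times timp2a in each uninjured library, at 1.79 and 1.58 times in the injured and at 2.28 and 1.98 times in the apobec2 KD libraries. timp2a alone thus made up 65.0% and 73.5% of the summed FPKM of the 7 genes in uninjured cells, and 11.6% and 12.5% in injured cells.

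Summed over the 5 Mmp genes, FPKM was 8.90 and 5.60 in the uninjured, 146.7 and 126.6 in the injured and 106.6 and 82.1 in the apobec2 KD libraries. Over both Timp genes it was 21.0 and 21.3, then 70.6 and 60.3, then 108.3 and 101.0. The Mmp sum was therefore 0.42 and 0.26 times the Timp sum in uninjured cells, 2.08 and 2.10 times in injured cells and 0.98 and 0.81 times in apobec2 KD cells. These ratios hold for the 7 members only. The 12 other Mmp genes found summed to 42.4 to 44.3 FPKM in the uninjured libraries, above both member sums. They summed to 32.15 to 32.44 FPKM in the injured and 41.4 to 45.5 FPKM in the apobec2 KD libraries. Further Mmp rows are not in that sum. The highest of them, MMP16 (2 of 2), is on chromosome 24 and shares its listed locus with 2 other rows. The same is listed for mmp16a, which is in that sum. Whether both lie at the same locus was not checked, so they may not be separate genes. MMP16 (2 of 2) was at 17.6 and 17.6 FPKM in the uninjured, 11.8 and 10.8 FPKM in the injured and 12.4 and 14.3 FPKM in the apobec2 KD libraries. The order of Mmp and Timp RNA before injury thus depends on which genes are counted. Among the members, mmp9 set most of the Mmp sum after injury. It held 56.0% and 57.2% of the FPKM of all 7 genes in the injured and 39.3% and 33.6% in the apobec2 KD libraries. In the latter, mmp9 and timp2b were close to each other, at 1.12 and 0.92 times, against 2.69 and 2.89 times in injured cells. These are RNA ratios, and say nothing of the amounts of active enzyme or inhibitor.

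**Figure D3:**
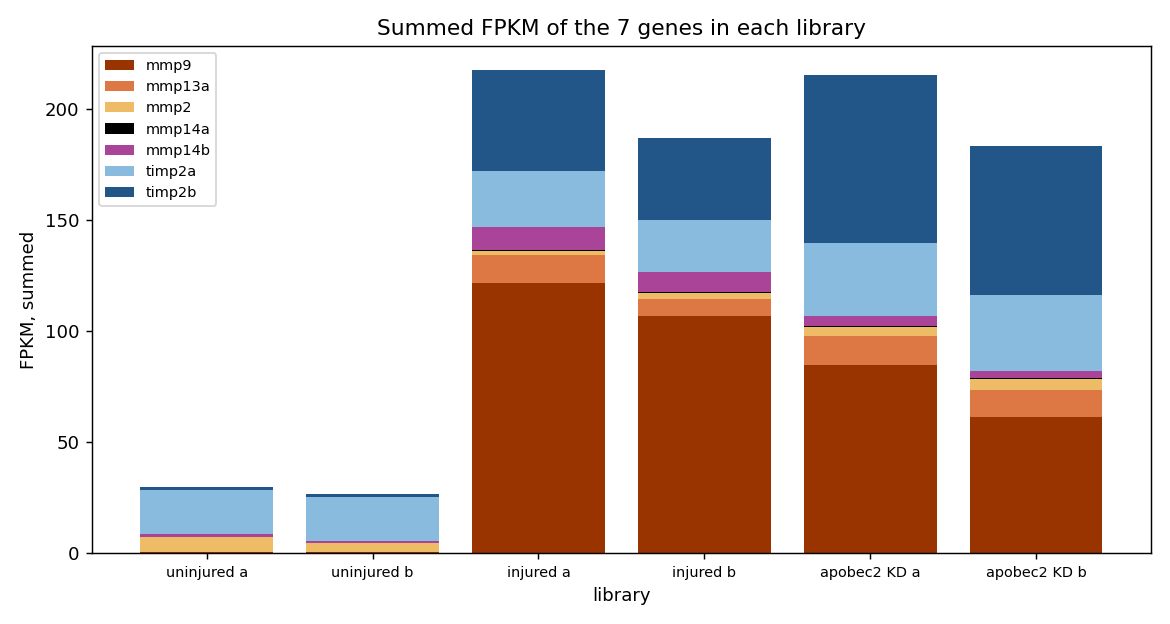
FPKM of the 7 genes stacked for each library. The bars reach 26.9 to 29.9 FPKM in the uninjured libraries, mostly timp2a, and 183.1 to 217.3 FPKM in the other 4, where mmp9 and timp2b make up most of the height and timp2b takes a larger share under apobec2 KD.

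A second rule, which carries no test and follows the paper's methods, took means that differed 2-fold or more with the higher one above 5 FPKM. By it 4 members were higher and 1 lower after injury, against 7.5% and 3.01% of all symbols (10.5% in all). By the same rule 1 member, mmp14b, was lower in apobec2 KD than in injured cells and 0 were higher, against 2.06% and 0.873% of all symbols (2.94% in all), and mmp2, at 2.01-fold, missed the level limit with a mean of 4.62 FPKM. In apobec2 KD over uninjured cells 3 members, mmp9, mmp13a and timp2b, were higher and 0 lower, against 5.01% and 2.56% of all symbols (7.56% in all).

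Genes whose profile over the 6 libraries was most like that of a member were sought among 11586 symbols above 5 FPKM in a group mean, by the Euclidean distance between log2(FPKM + 1) values centred on each gene's mean. The nearest to timp2b were nr1d4b, hbegfa and lepa, at distances of 0.24, 0.45 and 0.50 on the log2 scale. hbegfa encodes an EGF family growth factor and lepa a leptin. The nearest to mmp9 lay further off, at 0.65 for CABZ01040055.1, 0.89 for the chemokine gene cxcl-c1c and 0.96 for TNFRSF11B. For mmp14b they were nek6, iqgap1 and tnfrsf1a, at 0.25, 0.32 and 0.33, for mmp13a stmn4l, MDP1 and zgc:112054, at 0.38, 0.45 and 0.48, and for mmp2 BX296538.3, PRKCA (1 of 2) and RHOBTB1, at 0.19, 0.30 and 0.30. Among the 7 genes themselves mmp13a and timp2b, at 1.11, were the nearest pair of those that rose after injury. With 3 groups of 2 libraries, many genes share a profile, so these are descriptions of likeness only.

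Of 19 other Mmp genes listed, 12 were found in the table and 8 were tested. Over all genes tested, 29.7% were called higher and 19.0% lower after injury. After injury mmp13b was higher, with a log2 difference of 1.94 (adjusted p = 0.00465 from limma), and mmp23bb, mmp16a and mmp24 were lower, with -1.10, -0.53 and -0.36 (adjusted p = 0.00216, 0.0155 and 0.0438). Mmp16 and Mmp24 are membrane-type enzymes, and mmp16a shares its listed locus with 2 other rows, so its value is uncertain. mmp13b was listed at 0 FPKM in both uninjured libraries, so its positive sign was fixed by entry into the test. The median over the 8 was -0.40. The rise after injury seen in mmp9, mmp13a and mmp14b was thus not a change in all Mmp genes. Under apobec2 KD, against injured cells, only mmp24 of the 8 passed, with 0.74 (adjusted p = 0.0268 from limma). RECK, a membrane-anchored inhibitor of Mmps, was at 11.1 and 14.8 FPKM in the uninjured, 13.5 and 17.1 FPKM in the injured and 9.68 and 9.38 FPKM in the apobec2 KD libraries, and passed in none of the 3 comparisons. TIMP4 was at 0.27 to 1.41 FPKM and was not tested.

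Calls in other protease families after injury went in both directions, as did those over all genes tested, with 29.7% higher and 19.0% lower. The counts that follow are descriptions beside those shares. Of 9 Adam genes tested after injury, 5 were higher and 2 lower, with a median log2 difference of 0.52. adam8a rose from 0.12 FPKM in each uninjured library to 18.2 and 17.8 FPKM, and adam8b from 1.30 and 0.73 to 31.2 and 27.8 FPKM, with log2 differences of 4.08 and 3.93 (adjusted p = 5.27e-04 and 7.45e-04 from limma). adam17a and adam9 had 0.95 and 0.87, and passed too. The 2 lower were adam17b, the paralog of adam17a, and adam10a, with -0.62 and -0.36. Of 4 Adamts genes tested 1 was higher and 3 lower, with adamts10 at -1.14, adamts9 at -0.91 and adamts18 at -0.85 against 1.02 for ADAMTS14. Of the plasminogen system and the proprotein convertases, which activate several Mmps, 7 of 16 genes found were tested, and 4 were higher and 2 lower, with a median of 1.17. Among those higher were serpine2, with 1.62, and the plasminogen activators plat and plaua, with 1.60 and 1.17, while furina had -0.75 and spint1b -0.73. adam8a, ADAMTS14, serpine2, plat and plaua were under 1 FPKM in both uninjured libraries and passed the filter only through the injured ones. Their positive sign was thus fixed by entry. adamts10 and adamts9 were under 1 FPKM in both injured libraries, so their negative sign was fixed likewise. Comparing apobec2 KD with injured cells, 1 Adam gene of 9, adam8a, was lower, with -0.65 (adjusted p = 0.0293 from limma), 0 of 2 Adamts genes passed, 3.14% and 6.24% of all genes being called higher and lower, and 1 gene of 7 of the plasminogen list, plaua, was higher, with 0.71 (adjusted p = 0.0335). Both Adamts genes, ADAMTS14 and adamts18, had an adjusted p of 0.0611 and 0.059 there, with an unadjusted p under 0.05.

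Of 11 genes tested for matrix proteins that proteases of these families cut, 7 were higher and 1 lower after injury, with a median of 0.83. Over all genes tested the shares were 29.7% and 19.0%. The fibronectin genes fn1b and fn1 rose most, with 2.64 and 1.97, col1a1a had 1.12, and col2a1a was lower with -1.11. Most of the genes called higher, fn1b, fn1 and col1a1a among them, were under 1 FPKM in both uninjured libraries. These passed the filter only through the injured libraries, so their positive sign was fixed by entry. The count and the median are thus descriptions only. fn1 was the 1 gene of 12 that passed between apobec2 KD and injured cells, where 9.37% of all genes tested were called. It fell from 5.41 and 4.95 to 1.46 FPKM in each library, a log2 difference of -1.33 (adjusted p = 0.0067 from limma). fn1b did not share that fall. It was at 6.80 and 7.56 FPKM in the injured and 6.41 and 8.15 FPKM in the apobec2 KD libraries. Its log2 difference was 0.01 (adjusted p = 0.968 from limma).

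RNA of other cells was present in the sorted fraction. Beside the marker counts that follow stand the shares over all genes tested. These were 29.7% higher and 19.0% lower after injury, and 3.14% and 6.24% between apobec2 KD and injured cells. A marker under 1 FPKM in both libraries of 1 group entered the test only through the other group, so its sign was fixed by entry. The MG markers glula, at 1196 and 1280 FPKM, and rlbp1a, at 357.2 and 350.4 FPKM, were high in uninjured cells, and the 12 MG markers summed to 2723 to 2867 FPKM in the uninjured, 2457 to 2795 FPKM in the injured and 2169 to 2208 FPKM in the apobec2 KD libraries. That sum hid opposite changes of group means. After injury the marker apoeb rose from 600.9 to 1620 FPKM, gfap from 23.5 to 67.5 FPKM and vim from 17.4 to 74.7 FPKM. In the same comparison glula fell from 1238 to 464.6 FPKM and rlbp1a from 353.8 to 88.1 FPKM. apoeb alone, at 1478 and 1762 FPKM in the injured libraries, made up most of the sum there. The sum therefore does not show whether the MG share of the RNA changed. Of 11 tested after injury 6 were higher and 5 lower, and of 12 tested between apobec2 KD and injured cells 1 was higher and 4 lower. The 12 rod markers summed to 14123 to 14440 FPKM in the uninjured and 5071 to 7034 FPKM in the injured libraries, with 11 of 12 lower.

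The 15 microglia or macrophage markers found summed to 122.9 to 145.1 FPKM in the uninjured, 1362 to 1672 FPKM in the injured and 101.9 to 164.5 FPKM in the apobec2 KD libraries. Most of the injured and apobec2 KD sums was apoc1l, at 48.8 and 38.9, then 886.1 and 1123, then 106.5 and 69.8 FPKM in the 3 groups. After injury 13 of 15 were higher with a median log2 difference of 3.56, and between apobec2 KD and injured cells 15 of 15 were lower with a median of -2.89. Gene by gene the markers were not all back at the uninjured level under apobec2 KD: of 14 tested against uninjured cells 8 were higher and 2, cd74a and cd74b, lower, with a median of 0.91, where 22.9% and 13.9% of all genes were called. coro1a, for example, was at 2.40 and 1.40 FPKM in the uninjured, 54.9 and 54.0 FPKM in the injured and 7.67 and 5.45 FPKM in the apobec2 KD libraries. mmp14b moved in the direction of the list's medians after injury and between apobec2 KD and injured cells, with 2.29 and -1.13. mmp9 had values of 6.20 and -0.66, the second of which did not pass. The other members tested did not follow both medians. timp2b had 4.04 and 0.78, mmp13a 3.39 and 0.35, and timp2a 0.30 and 0.44, of which 0.35, 0.30 and 0.44 did not pass. mmp2 had -0.94 and 0.77, opposite in sign to both medians. The MG, neutrophil and pigment epithelium lists had medians of the same signs as the microglia or macrophage list. They were 0.44 and -0.20, 2.16 and -0.65, and 2.94 and -0.75. The endothelial, pericyte or fibroblast and rod lists did not share both signs. Agreement in sign is thus not particular to the microglia or macrophage list. The part of the microglia or macrophage markers in the values of the 7 genes was not tested.

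Of 10 neutrophil markers found, 6 of 7 tested were higher after injury and 2 of 7 were lower between apobec2 KD and injured cells, with medians of 2.16 and -0.65, and their sum was 169.4 to 194.1, 382.9 to 429.1 and 245.9 to 266.3 FPKM in the 3 groups. Most of that sum was s100a10b, which other cells also express, whereas mpx, the neutrophil myeloperoxidase, was at 0.10 and 0.13, then 4.82 and 3.27, then 1.84 and 1.96 FPKM. itln3 was listed at 0 in 5 of the 6 libraries. The 8 pigment epithelium markers found summed to 8.14 to 10.4, 92.0 to 103.7 and 43.3 to 62.8 FPKM, with 5 of 5 tested higher after injury and 3 of 5 lower under apobec2 KD. Among the pericyte or fibroblast markers the extremes after injury were opposite in sign, with rgs5b at 3.09 and rgs5a at -2.23. Of 5 endothelial markers tested 3 were higher and 1 lower, and the sum was 23.6 to 24.1, 30.4 to 34.1 and 39.8 to 42.9 FPKM. The part of the neutrophil, pigment epithelium, pericyte and endothelial markers in the values of the 7 genes was not tested.

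**Figure D4:**
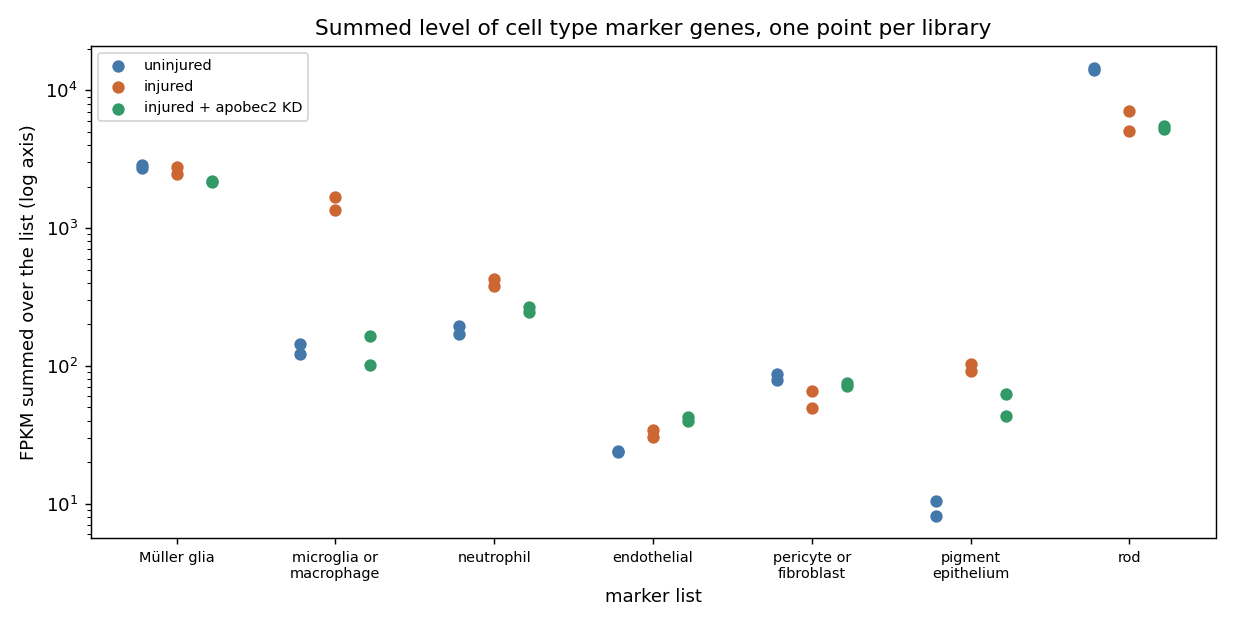
FPKM summed over each list of cell type markers, with 1 point per library and a log axis. The microglia or macrophage sum is 1362 to 1672 FPKM in the injured libraries and 101.9 to 164.5 FPKM under apobec2 KD, while the pigment epithelium sum is above the uninjured range in all 4 injured and apobec2 KD libraries.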

How the data were processed

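RNA of GFP+ cells purified by FACS was sequenced, and the submitters' processing notes name CASAVA, TopHat and Bowtie2. The authors deposited FPKM per gene and library, rounded to 0.01, in a table whose layout is that of Cuffdiff. Aligner versions, annotation and genome build are not given in the sources used here. A further 6 columns, named as externally scaled fragments, were not used. The table also holds the authors' group means, fold values and test results, which were not used. Its 30689 gene rows were reduced to 27152 symbols by summing rows of 1 symbol.

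The members and gene lists were chosen with earlier results of these data known. The limma fit (version 3.58.1, R 4.3.3, lmFit and eBayes) was run on log2(FPKM + 1) and tested on simulated data. The smallest p of an exact permutation test over 2 and 2 libraries is 0.333, so adjusted p values rest on variance shared across genes. Named genes were the members, the up to 4 genes of a protease, inhibitor or matrix list with the largest called difference after injury and up to 2 under apobec2 KD, the 3 genes nearest to each of 5 members, and marker genes. The values of 1 gene that this rule takes are not reported here. List symbols were matched exactly, by case or by RefSeq synonym. furina, spint1b, adam17b, adam10a and genes named for a count of 0 were chosen after their values were seen. Alternatives were a pseudocount of 0.1, other filters, quantile and median of ratios scaling, a variance trend, all 3 groups in 1 fit, the highest row per symbol, the table's library index as a block, and leaving out each library. Tables and plots were made in Python 3.11.15 with pandas 2.3.3, NumPy 2.4.6 and Matplotlib 3.10.9.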

Additional observations from a re-analysis of the deposited data

How the results depend on the processing

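No paired analysis was possible because no column can be matched to a replicate number of the labels. A block for the table's own library index, which no label ties to a shared fish, batch or day, was fitted as an alternative setting. Over 232 refits of the log2 differences of single members, 200 kept their direction and side of the threshold, 25 lost it, 6 (all timp2a) gained it and 1 reversed, mmp2 between apobec2 KD and uninjured cells, which ran from -0.45 to 0.12 with a library left out and was 0.12 without uninjured library a. The rises of mmp9, mmp13a, mmp14b and timp2b after injury passed under every setting that kept both libraries of each group. They stayed positive with each library left out. mmp9 and mmp13a passed the main filter only through the injured libraries, so their positive sign was fixed by entry and is no support. The call of mmp2 as lower after injury went from 1 to 0 with no filter and with the library index as a block, and lay between 0 and 1 with each library left out. Between apobec2 KD and injured cells, the members called higher were 0 with a pseudocount of 0.1 and with no filter, those called lower were 0 with no filter, and both were 0 with any library left out. The genes called there were 1022 with a pseudocount of 0.1, 925 with no filter and 154 to 265 with a library left out, against 1563. With a library left out, the genes called were 4463 to 5280 for injured and 2558 to 3221 for apobec2 KD against uninjured cells, and the members called higher under apobec2 KD against uninjured were 4 to 5. Quantile normalization split the calls into 2949 higher and 3130 lower there, against 3766 and 2286, and into 737 and 850 between apobec2 KD and injured cells, against 523 and 1040. With a limit of 1 FPKM the 2-fold rule gave 4841, 1735 and 3712 symbols in place of 2854, 797 and 2054, in the order injured over uninjured, apobec2 KD over injured and apobec2 KD over uninjured, and 2 members in place of 1 for apobec2 KD over injured. Adding 1 to each FPKM moved the mean ratio of timp2b over timp2a in uninjured cells from 0.0789 to 0.124, that of mmp9 over timp2b there from 0.367 to 0.616, and that of mmp14b over mmp14a from 32.8 to 8.05 in injured and from 23.6 to 4.15 in apobec2 KD cells. mmp14a was under the filter and had no refit, mmp2 and mmp14b had none where neither mean was above 5 FPKM, and how depth limits these values was not tested, as depth is unknown.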
